A study of Mus musculus with 23 samples.

Results

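Blood coagulation and its reversal were examined through 36 genes that encode the clotting factors, the fibrinogen chains, the enzymes that dissolve clots, and the inhibitors and receptors around them. The genes were taken by symbol from the 48895 symbols of the deposited expression table, and all 36 were found and could be tested. The table covers 23 RNA-seq libraries. Control liver came from 5 sham-operated mice, and 9 tumor-bearing mice each gave a primary colon tumor and a liver that the labels call pre-metastatic. All were male BALB/c mice aged 4 to 6 weeks. Tumor-bearing mice received CT26 cells, a single established mouse colon carcinoma line that grows in this strain, in the wall of the cecum, sham-operated mice received medium without cells, and tissues were taken 3 weeks later. Each library came from a separate mouse or, for tumors, from the mouse that also gave a pre-metastatic liver. Mice carry the numbers of the labels, C for sham-operated and M for tumor-bearing.

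Most clotting factors are made by hepatocytes and secreted into plasma as inactive precursors. Factor XII, plasma kallikrein, and factor XI belong to the contact pathway. In the extrinsic pathway tissue factor and factor VII start the reaction, and both routes meet at factor X, which with factor V turns prothrombin into thrombin. Thrombin cuts fibrinogen into fibrin, factor XIII cross-links it, and plasmin, made from plasminogen by tissue-type or urokinase-type plasminogen activator, removes it. Fibrinogen is also a classical acute-phase protein, a plasma protein that the liver makes in larger amounts during inflammation.

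Expression is given as RPKM, the count of a gene divided by its length and by the total counts of its library, and changes are log2 fold changes from edgeR's quasi-likelihood test with Benjamini-Hochberg adjustment over all genes tested. A gene passed the test at an adjusted *p* under 0.05. Total counts ran from 44587556 to 79773163 per library. Albumin (*Alb*) stood at 21750 to 30270 RPKM in control livers and 15820 to 46030 RPKM in pre-metastatic livers. Tumors held the epithelial keratin *Krt20* at 27.8 to 113 RPKM and *Epcam* at 0.0168 to 1.88 RPKM. Of 6 epithelial markers tested, 2 were higher and 4 lower in tumor than in pre-metastatic liver. Their summed level had a median of 71.62 RPKM in tumors and 235.8 RPKM in pre-metastatic livers. The epithelial identity of the tumors was not tested. The labels give no batch. By the level of 6 circadian clock genes the livers separated into an early phase with 4 control and 5 pre-metastatic livers, and a late phase with C7, M1, M2, M10, and M12. These phases are sets of samples found in the data, not conditions, and values within the early phase are given where they change the call of a gene named.

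In the pre-metastatic liver, 20 of the 36 genes rose, 0 fell, and 16 did not pass the test. Over all 16987 genes tested, 17.7% rose and 13.3% fell, together 31.0%. Values of 8 members did not overlap between control and pre-metastatic liver, all 8 higher in the pre-metastatic liver, against 4.85% of all genes higher and 6.09% lower without overlap. The log2 fold change was above 0 for 34 members, with a median of 0.60 for the members and 0.01 for all genes. Without TMM, the normalization of library composition used throughout, 17 members rose and 0 fell, while the split over all genes moved from 3009 higher and 2261 lower to 2377 higher and 2796 lower. Together the 36 genes took a median of 3.28% of all counts in control liver (2.43 to 3.93%) and 6.72% in pre-metastatic liver (3.95 to 9.13%). Much of this was fibrinogen, whose 3 chains went from a median of 2.05 to 4.59% of counts, while the other 33 genes went from 1.25 to 1.85%. In bulk tissue, fewer cells of a type and less RNA per cell cannot be told apart.

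**Figure D1:**
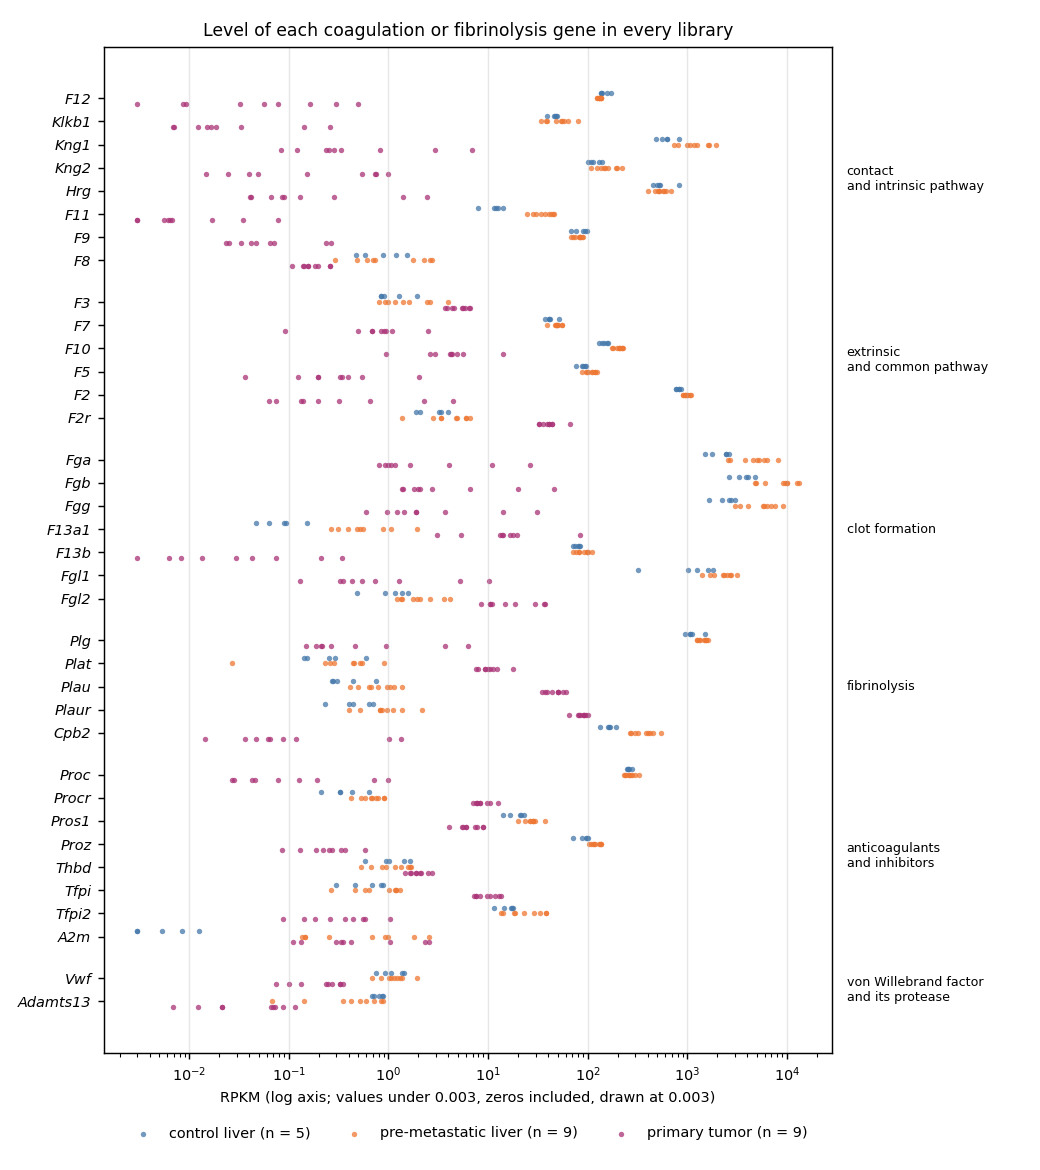
RPKM (log axis) of each of the 36 genes in every library, 1 point per library, in control liver (n = 5), pre-metastatic liver (n = 9), and primary tumor (n = 9), ordered by role. Liver points for the fibrinogen chains reach 13210 RPKM for *Fgb*, most plasma factors fall by orders of magnitude in the tumor, and *Plau*, *Plaur*, *Plat*, *Procr*, *Tfpi*, *F2r*, and *F13a1* are higher there.

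All 7 genes counted with clot formation rose and passed the test, where 17.7% of all genes rose. This group also holds the fibrinogen-like *Fgl1* and the prothrombinase *Fgl2*. The calls of *F13b*, *Fgl1*, and *Fgl2* depended on the setting, as given below. *Fga*, *Fgb*, and *Fgg* encode the alpha, beta, and gamma chains of fibrinogen and lie side by side on chromosome 3, with 8.62 kb between *Fga* and *Fgb* and 11.1 kb between *Fgg* and *Fga*. *Fga* (chr3:83026153-83033627, plus strand, mm10) stood at 2636, 2471, 1509, 2448, and 1762 RPKM in C1, C4, C5, C6, and C7, and ran from 2541 to 8190 RPKM in pre-metastatic liver (median 4957). Its groups met at 1 end, where M10 lay just under C1. The log2 fold change was 1.28 (SE 0.31, adjusted *p* = 0.00612). *Fgb* went from 2600 to 4795 RPKM (median 3898) in control liver to 4733 to 13210 RPKM (median 9537), by 1.37 (SE 0.31, adjusted *p* = 0.00407). *Fgg* went from 1655 to 3010 RPKM (median 2654) to 3011 to 9107 RPKM (median 5830), by 1.34 (SE 0.30, adjusted *p* = 0.0038). The *Fgg* groups did not overlap, although the margin was 1 RPKM. M2 and M10 were the lowest pre-metastatic livers for all 3 chains. *Fgb* over *Fga* was 1.59 to 1.88 in control (median 1.72) and 1.595 to 2.04 in pre-metastatic liver (median 1.86), so the groups overlapped in this ratio.

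The 300 bases around the start sites of the fibrinogen genes and of *F11*, the member with the lowest adjusted *p*, are shown: the chains because they lie side by side and all rose, and *F11* because of that *p*. They run from 250 bases before to 50 bases after the start in RefSeq's GRCm38.p6, read 5′ to 3′ on the gene's strand. Capitals mark matches, on either strand, to letters searched: TTCNNNGAA for STAT factors, CTGGGA for the interleukin-6 responsive element, TTGCNNAA for C/EBP factors, and GTTAAT for HNF1. These are chr3:83025903-83026202 (*Fga*, plus), chr3:83049814-83050113 (*Fgb*, minus), chr3:83007474-83007773 (*Fgg*, plus), and chr8:45261982-45262281 (*F11*, minus).
Fga: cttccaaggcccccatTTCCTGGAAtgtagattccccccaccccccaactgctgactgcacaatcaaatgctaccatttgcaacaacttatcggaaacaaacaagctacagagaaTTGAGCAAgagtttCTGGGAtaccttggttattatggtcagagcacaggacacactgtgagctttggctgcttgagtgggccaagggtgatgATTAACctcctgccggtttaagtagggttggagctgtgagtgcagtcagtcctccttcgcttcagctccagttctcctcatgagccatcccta
Fgb: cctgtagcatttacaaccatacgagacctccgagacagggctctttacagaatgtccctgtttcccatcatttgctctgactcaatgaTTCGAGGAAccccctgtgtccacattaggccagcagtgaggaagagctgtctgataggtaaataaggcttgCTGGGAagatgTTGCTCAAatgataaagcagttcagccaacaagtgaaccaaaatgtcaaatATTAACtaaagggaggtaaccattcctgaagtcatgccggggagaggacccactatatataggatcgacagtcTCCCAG
Fgg: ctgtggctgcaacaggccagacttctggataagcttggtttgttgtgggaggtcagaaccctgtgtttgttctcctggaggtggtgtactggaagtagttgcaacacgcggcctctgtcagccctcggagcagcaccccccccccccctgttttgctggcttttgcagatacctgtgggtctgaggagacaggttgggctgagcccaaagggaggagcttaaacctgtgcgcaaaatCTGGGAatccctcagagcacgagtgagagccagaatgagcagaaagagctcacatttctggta
F11: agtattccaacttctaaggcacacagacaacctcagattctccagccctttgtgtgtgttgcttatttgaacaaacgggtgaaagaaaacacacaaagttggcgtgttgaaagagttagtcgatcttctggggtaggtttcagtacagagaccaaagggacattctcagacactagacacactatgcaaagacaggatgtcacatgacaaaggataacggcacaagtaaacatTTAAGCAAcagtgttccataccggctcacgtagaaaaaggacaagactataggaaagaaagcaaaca

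The *Fga* window held 1 match to each of the 4 motifs, and *Fgb* held 1 STAT, 2 interleukin-6, 1 C/EBP, and 1 HNF1 match. In *Fgg* the search found 1 interleukin-6 match, and in *F11* 1 C/EBP match. Promoters were at hand for 27 of the 36 genes, in 31 windows, and a gene is counted when any of its windows holds a match. Of these 27 genes, 5 held a STAT match, 17 an interleukin-6 match, 10 a C/EBP match, and 6 an HNF1 match. Counted in the same way over all 27025 genes of the table, the shares were 9.55, 34.8, 12.2, and 8.24%, and over its 32851 windows 8.30, 31.8, 10.8, and 7.10%. The E-box CACGTG, also searched, was in 1 of the 27 and in 8.09% of all genes (7.15% of windows). STAT and interleukin-6 letters shared bases in *Fgl2* and *F9*. A match describes letters in a window and is not evidence of a bound site.

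The other genes counted with clot formation rose by unequal amounts. *F13a1* encodes the catalytic A subunit of factor XIII, which macrophages and platelets carry. It stood at 0.0633, 0.152, 0.0467, 0.0898, and 0.0927 RPKM in C1, C4, C5, C6, and C7, and at 0.263 to 1.93 RPKM in pre-metastatic liver (median 0.514), with no overlap. Its log2 fold change was 3.11 (SE 0.53, adjusted *p* = 0.000595). Its carrier subunit *F13b*, a hepatocyte gene, rose by only 0.30 (adjusted *p* = 0.0303), from 70.9 to 83.2 RPKM to 71.3 to 111 RPKM. It did not pass in the early phase (adjusted *p* = 0.208) or without C1, C4, C5, or C7. The *F13b* call was also lost without the count filter (adjusted *p* = 0.0732), with clock phase as a covariate (0.0521), and with the replicate number as a block (0.238). On library totals (adjusted *p* = 0.143) and by the exact Wilcoxon test on RPKM (0.175) it did not pass either. *Fgl1*, a fibrinogen-like protein secreted by hepatocytes, rose by 1.02 (SE 0.34, adjusted *p* = 0.0308). Control livers held 1620, 1808, 321, 1026, and 1257 RPKM of it in C1, C4, C5, C6, and C7, and pre-metastatic livers 1405 to 3143 RPKM (median 2362). Control mouse C5 stood lowest, and the call was lost without C6 (adjusted *p* = 0.0707), without C7 (0.0552), and in the early phase (0.0817). *Fgl2*, a prothrombinase of macrophages and endothelium, rose by 1.08 (adjusted *p* = 0.0125), from a median of 1.17 to 1.95 RPKM with overlap. By the exact Wilcoxon test on RPKM *Fgl2* did not pass (adjusted *p* = 0.0604).

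**Figure D2:**
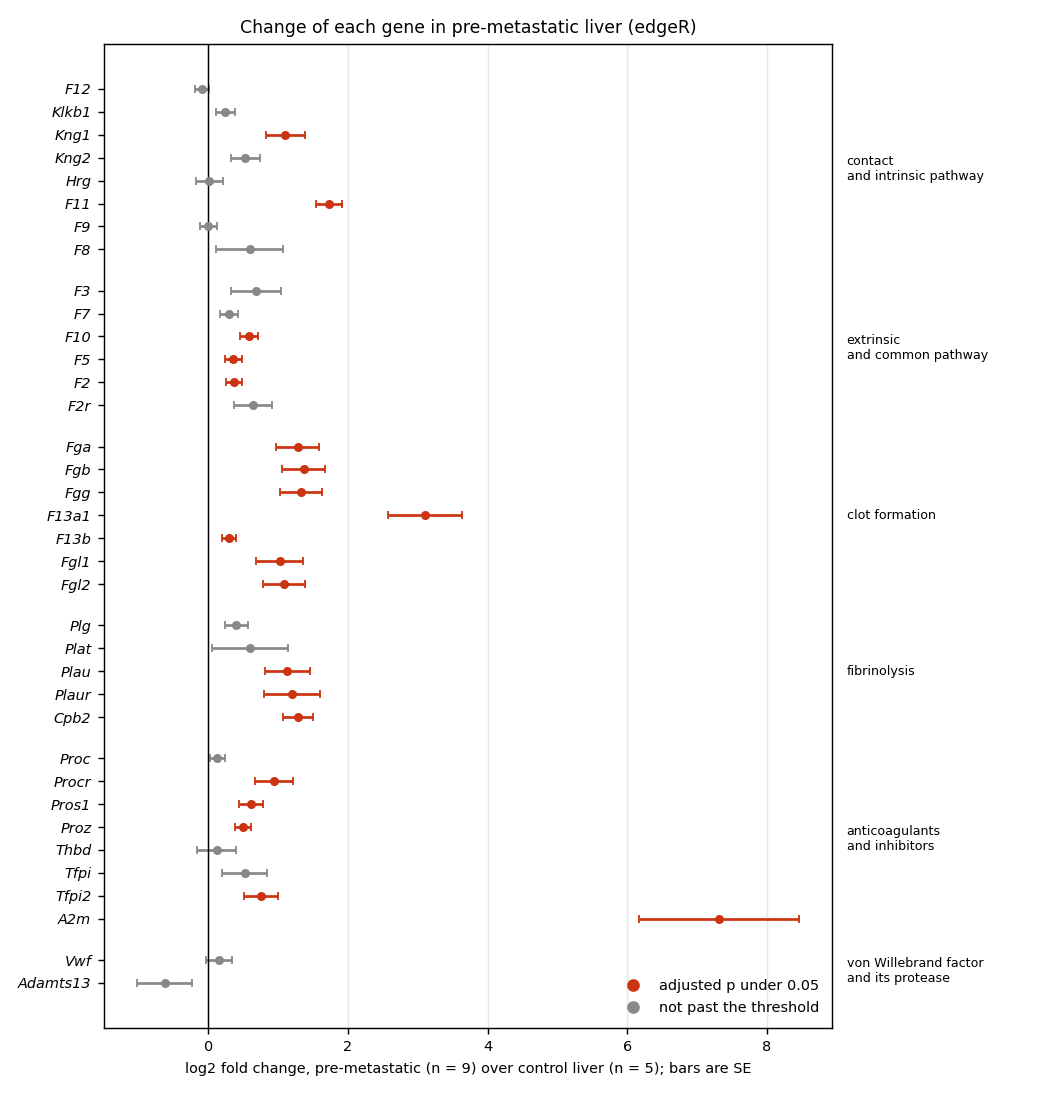
Log2 fold change of each gene between pre-metastatic (n = 9) and control liver (n = 5) from edgeR, with bars of 1 SE. Red points passed an adjusted *p* under 0.05 (20 genes, all above 0) and grey points did not (16 genes), and *A2m* at 7.31 lies far to the right of the others.

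Of the 8 genes counted with the contact and intrinsic pathway, *Hrg* among them, *F11* and *Kng1* passed the test. Both were higher in pre-metastatic liver, where 17.7% of all genes rose. *F11* encodes factor XI, which activates factor IX. It stood at 14.2, 11.4, 7.96, 11.9, and 12.7 RPKM in C1, C4, C5, C6, and C7, and at 24.4 to 46.1 RPKM in pre-metastatic liver (median 37.7). The lowest pre-metastatic liver lay above every control liver, and the log2 fold change was 1.73 (SE 0.19, adjusted *p* = 3.26e-05). *Kng1*, high-molecular-weight kininogen, the cofactor that holds factor XI and prekallikrein on surfaces, rose by 1.11 (SE 0.28, adjusted *p* = 0.0074), from 489.7 to 825 RPKM to 742 to 1941 RPKM with overlap. Its close copy *Kng2* went from 101 to 141 RPKM to 108 to 223 RPKM (0.53, adjusted *p* = 0.0631), and passed without C1 (adjusted *p* = 0.0494), M2 (0.0439), or M5 (0.0188). How the counting treated reads that fit both kininogen genes is not given in the sources used here, so the split between them is uncertain.

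The remaining genes counted with this pathway did not pass. Factor XII (*F12*) had a log2 fold change of -0.09 (adjusted *p* = 0.521), from 135 to 172 RPKM to 123 to 138 RPKM, although the exact Wilcoxon test on RPKM put it lower in pre-metastatic liver (adjusted *p* = 0.0211). For plasma prekallikrein (*Klkb1*) the value was 0.25 (adjusted *p* = 0.199), for factor IX (*F9*) 0.00 (0.991), for factor VIII (*F8*) 0.59 (0.375), and for histidine-rich glycoprotein (*Hrg*) 0.02 (0.955). *F8* spread over 0.289 to 2.77 RPKM among the pre-metastatic livers, the widest relative range of the intrinsic factors.

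Ratios of neighboring members within a liver do not depend on the library total. They were taken after the values had been seen, for all 10 pairs of members that lie near each other on a chromosome (at most 96.6 kb apart), and are given as a description with no test. Folds are the difference of the group means of the log2 ratio. *Klkb1* and *F11* lie 4.64 kb apart on chromosome 8 on the same strand and are paralogs, and *F11* over *Klkb1* was 0.168 to 0.360 in control and 0.516 to 1.04 in pre-metastatic liver, 2.85-fold higher. *Kng2* lies 29.1 kb from *Kng1* and 24.2 kb from *Hrg* on chromosome 16. *Kng1* over *Kng2* was 4.57 to 5.86 in control and 6.49 to 8.69 in pre-metastatic liver, 1.46-fold higher. *Kng1* over *Hrg* was 0.916 to 1.40 in control and 1.42 to 3.33 in pre-metastatic liver, 1.99-fold higher. In these 3 ratios every pre-metastatic liver exceeded every control liver, and in the other 7 the groups overlapped. Among early-phase livers alone, 5 of the 10 ratios were apart, these 3 and 2 more. *Kng2* over *Hrg* was there 0.169 to 0.219 in control and 0.265 to 0.383 in pre-metastatic liver. *F10* over *F7* was there 3.07 to 3.71 and 4.10 to 4.58. Such a ratio shows unequal change and not which of its genes changed.

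**Figure D3:**
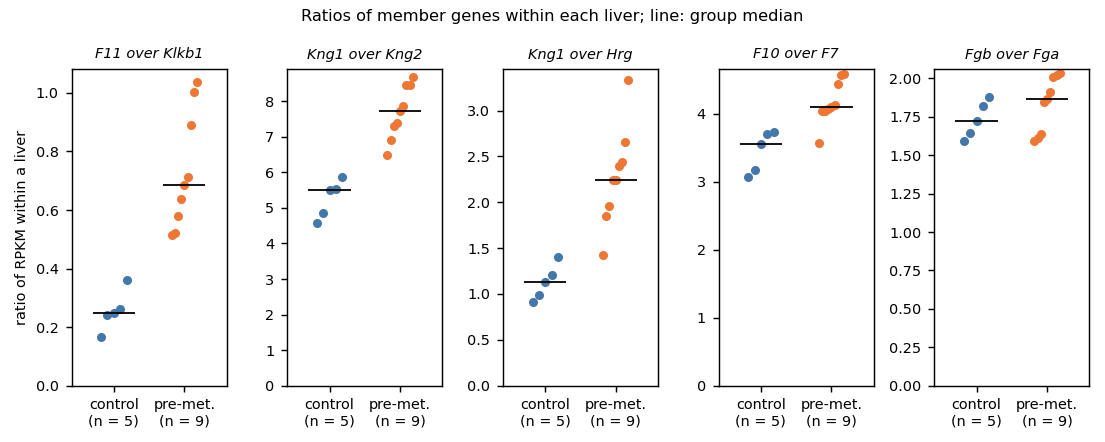
Ratio of RPKM of pairs of member genes within each liver, 1 point per liver, for control (n = 5) and pre-metastatic liver (n = 9), with a line at the group median and axes from 0. Points of the groups are apart for *F11* over *Klkb1*, *Kng1* over *Kng2*, and *Kng1* over *Hrg*, nearly apart for *F10* over *F7*, and overlap for *Fgb* over *Fga*.

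Of the 6 genes of the extrinsic and common pathway, *F10*, *F5*, and *F2* rose, against 17.7% of all genes. *F3*, *F7*, and *F2r* did not pass. *F10*, factor X, stood at 159.5, 146, 129.6, 139, and 155 RPKM in C1, C4, C5, C6, and C7, and at 177 to 227 RPKM in pre-metastatic liver (median 207), without overlap. It rose by 0.58 (SE 0.13, adjusted *p* = 0.0028). Factor VII (*F7*), whose gene ends 1.50 kb before *F10* on the same strand, went from 37.5 to 52.0 RPKM to 39.5 to 55.8 RPKM (0.30, adjusted *p* = 0.1), and without C1, the highest control liver, it passed (0.42, adjusted *p* = 0.0288), as it did without M5 (adjusted *p* = 0.0225). The ratio of *F10* to *F7* was 3.07 to 3.73 in control and 3.57 to 4.58 in pre-metastatic liver, with overlap. Prothrombin (*F2*) was at 768 to 863 RPKM in control and 898 to 1098 RPKM in pre-metastatic liver. These ranges did not overlap, and *F2* rose by 0.37 (SE 0.12, adjusted *p* = 0.0284). *F2* shares 6694 bases with *Ckap5* on the other strand, which was at a median of 1.92 RPKM in control and 1.83 RPKM in pre-metastatic liver, and no source used here states whether the counting used strand. Factor V (*F5*) rose by 0.36 (adjusted *p* = 0.0285). Neither *F2* nor *F5* passed in the early phase (adjusted *p* = 0.135 and 0.257). The same held without the count filter (0.073 and 0.0624) and with the replicate number as a block (0.141 and 0.218). The *F2* call was also lost without C4, C6, or C7 and the *F5* call without C1, C4, or C7. *F5* also did not pass with clock phase as a covariate (adjusted *p* = 0.0541) or on library totals (0.0598). Tissue factor (*F3*), the trigger of the extrinsic pathway, was at 0.842 to 1.92 RPKM in control and 0.807 to 3.97 RPKM in pre-metastatic liver (0.69, adjusted *p* = 0.159). The thrombin receptor *F2r* had 0.65 (adjusted *p* = 0.083), and it passed in the early phase (0.77, adjusted *p* = 0.0413) and without M12 (0.76, adjusted *p* = 0.0138).

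Of the 5 fibrinolysis genes 3 passed, all higher, where 17.7% of all genes rose. *Cpb2* encodes a plasma carboxypeptidase that slows fibrin breakdown. It was at 194, 167, 132, 164, and 159 RPKM in C1, C4, C5, C6, and C7, and at 265 to 539.9 RPKM in pre-metastatic liver (median 384). No value overlapped, and the gene rose by 1.29 (SE 0.21, adjusted *p* = 0.000498). Urokinase (*Plau*) rose by 1.13 (SE 0.32, adjusted *p* = 0.0147), from a median of 0.302 to 0.795 RPKM, and its receptor *Plaur* by 1.20 (SE 0.40, adjusted *p* = 0.0322), from 0.441 to 0.863 RPKM. Both stayed far below *Cpb2* in RPKM, their groups overlapped, and the *Plaur* call was lost without C1, C4, C5, or M1. By the exact Wilcoxon test on RPKM neither *Plau* nor *Plaur* passed (adjusted *p* = 0.0604 for each). Plasminogen (*Plg*) went from 948 to 1499 RPKM to 1244 to 1617 RPKM (0.40, adjusted *p* = 0.0673), and it passed without C1 (0.56, adjusted *p* = 0.0149), the highest control liver, without M5 (adjusted *p* = 0.034), and by DESeq2 (0.40, adjusted *p* = 0.0304). Tissue-type plasminogen activator (*Plat*) ran from 0.0268 to 0.901 RPKM in pre-metastatic liver and did not pass (0.60, adjusted *p* = 0.431).

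Among the 8 anticoagulants and inhibitors, *A2m*, *Pros1*, *Proz*, *Procr*, and *Tfpi2* rose, against 17.7% of all genes. *Proc*, *Thbd*, and *Tfpi* did not pass. *A2m*, a broad protease inhibitor of the alpha-2-macroglobulin family, was almost unread in control liver, with 2, 3, 0, 4, and 1 counts in C1, C4, C5, C6, and C7. Pre-metastatic livers held 41 to 891 counts, or 0.136 to 2.53 RPKM (median 0.681). Summed over each group and divided by total counts, the level was 157-fold higher (95% exact interval 85.4 to 328, counting error only), and edgeR gave an adjusted *p* of 0.000336. It remained a rare transcript: *Pzp*, its close relative in mouse liver, was at 854 to 1107 RPKM in control and 1819 to 3338 RPKM in pre-metastatic liver, and reads shared between the copies were not examined. Protein S (*Pros1*), the cofactor of activated protein C, rose by 0.62 (SE 0.17, adjusted *p* = 0.0141), from a median of 21.1 to 28.3 RPKM with overlap. It did not pass in the early phase (0.57, adjusted *p* = 0.0501) or with the replicate number as a block (0.68, adjusted *p* = 0.0622). Protein Z (*Proz*), the cofactor of the protein Z-dependent inhibitor of factor X, rose by 0.50 (SE 0.12, adjusted *p* = 0.00446), from 72.1 to 102 RPKM to 104 to 136 RPKM without overlap. The endothelial protein C receptor *Procr* rose by 0.94 (adjusted *p* = 0.0165). *Tfpi2*, a Kunitz-type inhibitor of plasmin and other proteases, rose by 0.76 (adjusted *p* = 0.0239). The *Tfpi2* call was lost without C5 (adjusted *p* = 0.0683), on library totals (0.0504), and by the exact Wilcoxon test on RPKM (0.138). Protein C itself (*Proc*) was at 249.8 to 277 RPKM in control and 229 to 328 RPKM in pre-metastatic liver (0.13, adjusted *p* = 0.36). The values for thrombomodulin (*Thbd*), which turns thrombin toward protein C, and for tissue factor pathway inhibitor (*Tfpi*) were 0.12 (adjusted *p* = 0.776) and 0.52 (0.245).

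Neither von Willebrand factor (*Vwf*), which tethers platelets and carries factor VIII, nor its protease *Adamts13* passed. *Vwf* was at 0.759 to 1.42 RPKM in control and 0.685 to 1.93 RPKM in pre-metastatic liver (0.15, adjusted *p* = 0.56). *Adamts13* had the most negative value of all members, -0.62 (SE 0.39, adjusted *p* = 0.246), with 0.684 to 0.874 RPKM in control and 0.0682 to 0.877 RPKM in pre-metastatic liver.

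Markers of other cells moved beside these changes. Of the markers tested, 4 of 6 for macrophages, 4 of 4 for Kupffer cells, and 5 of 6 for neutrophils rose. For platelets and megakaryocytes 2 of 5 rose, for fibroblasts 2 of 6, and for epithelial cells 2 of 5. For T cells 1 of 4 rose and for sinusoidal endothelial cells 1 of 3, while 0 of 7 endothelial markers passed. Over all genes 17.7% rose and 13.3% fell. The summed macrophage markers went from 58.6 to 104 RPKM in control to 81.9 to 247 RPKM in pre-metastatic liver, the neutrophil markers from 6.45 to 17.95 RPKM to 7.26 to 119 RPKM, and the platelet markers from 1.87 to 3.63 RPKM to 3.49 to 7.78 RPKM. Their part in the rises of *F13a1*, *Fgl2*, *Plau*, *Plaur*, and *Procr* was not tested. Of 6 hepatocyte markers, 0 rose and 2 fell (*Apoc3* and *Cps1*). All 11 acute-phase proteins rose, with a median log2 fold change of 2.51 and a summed level of 3633 to 10680 RPKM in control and 15410 to 51930 RPKM in pre-metastatic liver.

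Among the 9 pre-metastatic livers, fibrinogen followed these acute-phase proteins. Their score is the mean of the 11 genes on log2(RPKM + 1), each standardized over the 9 livers, and it was lowest in M2 (-1.32) and M10 (-1.23) and highest in M7 (1.22). Pearson's *r* was 0.906 for *Fga*, 0.960 for *Fgb*, and 0.920 for *Fgg*, with Spearman's rho of 0.900, 0.917, and 0.883. By exact permutation over all pairings the adjusted *p* over the 6 correlations tested was 0.00192, 0.00179, and 0.00192 for Pearson's *r*, and 0.00608, 0.00608, and 0.00615 for rho. Without M2 and M10, *r* was 0.720, 0.888, and 0.784 (exact permutation, adjusted *p* = 0.108, 0.0476, and 0.0853), so for *Fga* and *Fgg* the call rests on those livers. By rho none of the 3 passed without them (adjusted *p* = 0.0683, 0.0683, and 0.072). Within clock phase *r* was 0.907, 0.957, and 0.922. When the same correlation was run on all 16976 genes that could be scored, 0 genes passed the adjusted threshold in either direction, 14.1% had an exact permutation *p* under 0.05 before adjustment, and 10 of the 36 members did.

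Members that rose against control liver did not all follow the acute-phase score. *Fgl1* had the highest *r* of the members (0.970), followed by the 3 fibrinogen chains, *Cpb2* (0.846), and *F10* (0.842). *F11*, which rose with the lowest adjusted *p*, had an *r* of -0.52 (exact permutation *p* = 0.148 before adjustment), and M2 and M10, lowest for fibrinogen, were its highest livers at 46.1 and 45.2 RPKM. *Klkb1* had the most negative *r*, -0.81 (exact permutation *p* = 0.00932 before adjustment and 0.232 over all genes). For *Kng1* the value was 0.709. Some of these genes also stood apart by clock phase among the pre-metastatic livers. *F11* was at 24.4 to 37.7 RPKM in the 5 early livers and 40.6 to 46.1 RPKM in the 4 late ones, *F5* at 88.7 to 110.8 and 111.3 to 125.5 RPKM, and *Proz* at 104 to 118 and 129 to 136 RPKM. The phases were not compared by a test. *F11* rose in the early phase alone, and its adjusted *p* lay between 5.08e-18 and 0.00913 over all alternatives.

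**Figure D4:**
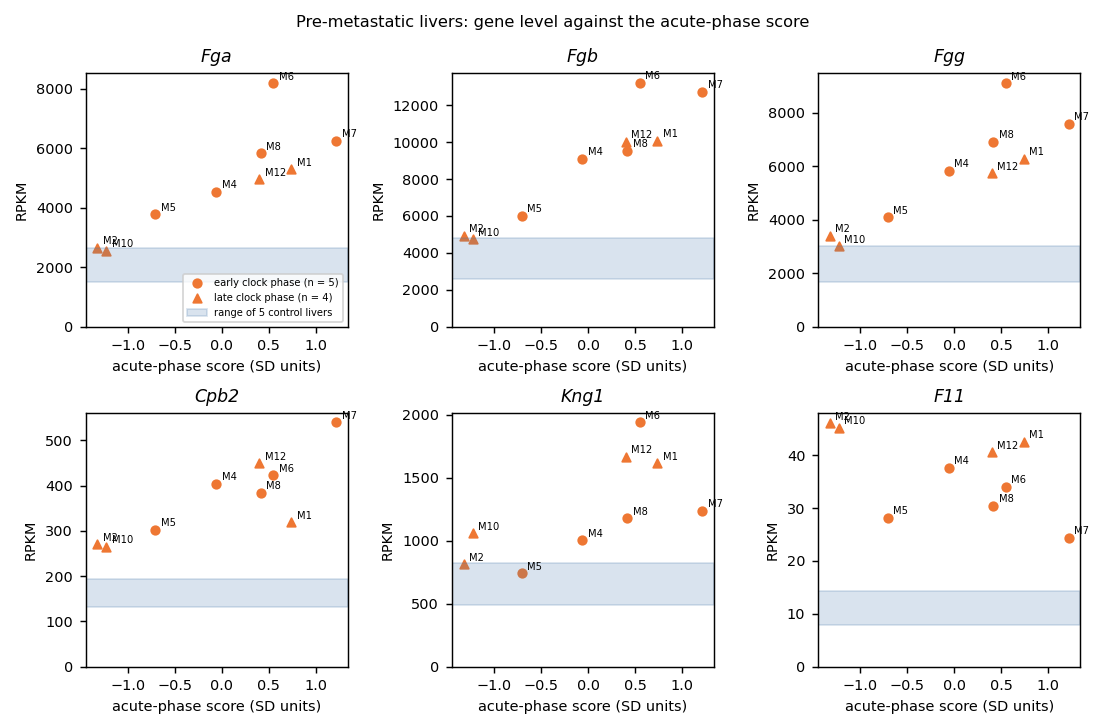
RPKM of 6 member genes against the acute-phase score (mean standardized level of 11 acute-phase genes, SD units) in the 9 pre-metastatic livers, circles for the early and triangles for the late clock phase, with the range of the 5 control livers shaded. The fibrinogen chains climb with the score from M2 and M10 upward (*r* of 0.906 to 0.960), and *F11* lies above the control range at every score, highest in M2 and M10.

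A further 20 genes that serve the same reactions and are not among the 36 were followed as companions: serine protease inhibitors, the vitamin K cycle, the receptor that carries factors V and VIII out of the cell, plasminogen receptors, and thrombin receptors. In liver 17 could be tested, of which 8 rose and 1 fell, against 17.7 and 13.3% of all genes. *Serpina10*, the inhibitor that works with protein Z, rose by 1.80 (adjusted *p* = 9.37e-05), from 92.5 to 161 RPKM to 269.6 to 627 RPKM. *C4bp*, the plasma protein that binds protein S, rose by 1.36 (adjusted *p* = 5.15e-05), and *Anxa2*, a plasminogen receptor of cell surfaces, by 1.32 (adjusted *p* = 0.00406). Smaller rises were those of *Serping1*, the inhibitor of factors XIIa and XIa and of kallikrein (0.48, adjusted *p* = 0.0153), *Serpind1*, heparin cofactor II (0.38, 0.016), and *Plgrkt*, another plasminogen receptor (0.47, 0.0173). In the early phase *Serping1* (0.44, adjusted *p* = 0.081) and *Serpind1* (0.35, adjusted *p* = 0.0828) did not pass. *Serpind1* was also lost without C4 (adjusted *p* = 0.0512), and *Plgrkt* without C1 (adjusted *p* = 0.0516) or C6 (0.0502). With the replicate number as a block neither *Serpind1* nor *Plgrkt* passed (adjusted *p* = 0.149 and 0.0862). *Plgrkt* was also lost on library totals (adjusted *p* = 0.0945) and by the exact Wilcoxon test on RPKM (0.106). Without C4 or without C6, 5 companion genes passed, and in the early phase also 5.

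The tumors were compared with the pre-metastatic livers of the same mice, by a test that did not pair them by mouse unless stated. The liver comparison uses these livers too, so the results are not independent of each other. Of the 36 genes, 8 were higher in the tumor, 25 were lower, and 3 did not pass, against 43.8% higher and 39.5% lower, together 83.3%, over 19749 genes. Values did not overlap for 8 higher and 24 lower members, where 52.9 and 14.2% of all genes, together 67.1%, did so. A median of 19.7% of counts went to the top 10 genes of a liver and 5.45% to those of a tumor, and TMM and the library total scale these tissues differently. On library totals, the scale of RPKM, the median log2 fold change of all genes was 1.30 in place of 0.13, 13352 genes were higher and 4206 lower in place of 8648 and 7809, and 10 members were higher and 25 lower. Log2 fold changes below use TMM and are therefore smaller than the RPKM values imply for genes high in tumor, and larger for genes low in it.

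The 8 genes higher in the tumor were *Plaur*, *Plau*, *Plat*, *F13a1*, *F2r*, *Tfpi*, *Procr*, and *Fgl2*. *Plaur* was at 64.3 to 102 RPKM in tumors (median 90.1) and 0.406 to 2.18 RPKM in the livers, 5.21 higher on the log2 scale (SE 0.28, adjusted *p* = 8.54e-13). Its ligand *Plau* was at 34.7 to 61.1 RPKM (median 50.02), 4.63 higher (SE 0.21, adjusted *p* = 8.29e-14). *Plat* stood at 7.51 to 17.9 RPKM and was 3.52 higher. Both plasminogen activators were thus higher in tumor than in liver, while their substrate *Plg* was at 0.149 to 6.36 RPKM there, against 1244 to 1617 RPKM in the livers.

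Of the genes higher in the tumor, *F13a1* varied most. It was at 13.7, 14.3, 3.10, 5.33, 83.4, 16.8, 19.4, 17.8, and 13.1 RPKM in M1, M2, M4, M5, M6, M7, M8, M10, and M12, 3.65 higher than in liver (SE 0.56, adjusted *p* = 5.29e-06). The tumor of M6 stood far above the rest, and its summed platelet markers, 114 RPKM, were the highest of the tumors too. Of that sum 105 RPKM was *Pf4* alone, and 1 of 5 platelet markers was higher and 1 lower in tumor than in liver. The macrophage marker *Mrc1*, named after its values were seen, was also highest in M6, at 92.6 RPKM against 12.8 to 65.7 RPKM in the other tumors. The sum of all 6 macrophage markers was 614 RPKM in M6, the median of the tumors. *F2r* was at 32.3 to 67.2 RPKM and *Tfpi* at 7.15 to 13.6 RPKM, 2.11 and 2.35 higher. For *Procr* (7.06 to 12.5 RPKM) and *Fgl2* (8.52 to 37.4 RPKM) the difference was 2.49 and 1.98. All 8 of these genes were higher in each of 9 tumors than in any of the 9 livers.

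Tissue factor did not pass in the unpaired test. *F3* was at 3.68 to 6.67 RPKM in tumors and 0.807 to 3.97 RPKM in livers, with a log2 fold change of 0.37 (SE 0.26, adjusted *p* = 0.18). With the mouse as a block, tumor against liver of the same animal, it was higher by 0.52 (adjusted *p* = 0.0454), without M2 by 0.54 (adjusted *p* = 0.0403), and on library totals by 1.54 (adjusted *p* = 2.64e-05). *Thbd* had -0.38 (adjusted *p* = 0.0878) with TMM but 0.80 (adjusted *p* = 0.00142) on library totals, so its direction depends on the scaling. *A2m* ran from 0.110 to 2.57 RPKM in tumors and 0.136 to 2.53 RPKM in livers (-1.25, adjusted *p* = 0.111).

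The 25 genes lower in the tumor differed widely in how much was left. With hepatocyte transcripts as a yardstick, the tumor level of each gene was expressed as a percent of the RPKM in the liver of the same mouse. The medians of 6 hepatocyte markers, *Alb* among them, were 0.0189 to 0.0292%. Within or under that range lay 8 members (*Kng1*, *Hrg*, *F11*, *F2*, *Fgb*, *Fgl1*, *Plg*, and *Cpb2*), and 10 lay above it by less than 10 times, among them *Fga* at 0.0310%, *Fgg* at 0.0302%, and *F5* at 0.290%. The fibrinogen chains had log2 fold changes of -11.01 to -11.09. Tumors of M10 and M12 had the most hepatocyte transcript, with *Alb* at 86.4 and 172.8 RPKM against 2.97 to 15.0 RPKM in the other 7, and they also held the most fibrinogen, for *Fga* 11.1 and 26.6 RPKM against 0.796 to 4.10 RPKM. Whether these transcripts came from liver tissue in the samples was not tested. Without these mice the *Fga* value was -12.96 and that of *Kng1* -13.17 in place of -11.06, and *A2m* (-2.36, adjusted *p* = 0.00481) and *Thbd* (-0.66, adjusted *p* = 0.00231) also passed as lower. Leaving out M10 alone was enough for both (*A2m* -1.78, adjusted *p* = 0.0322, and *Thbd* -0.55, adjusted *p* = 0.00768).

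**Figure D5:**
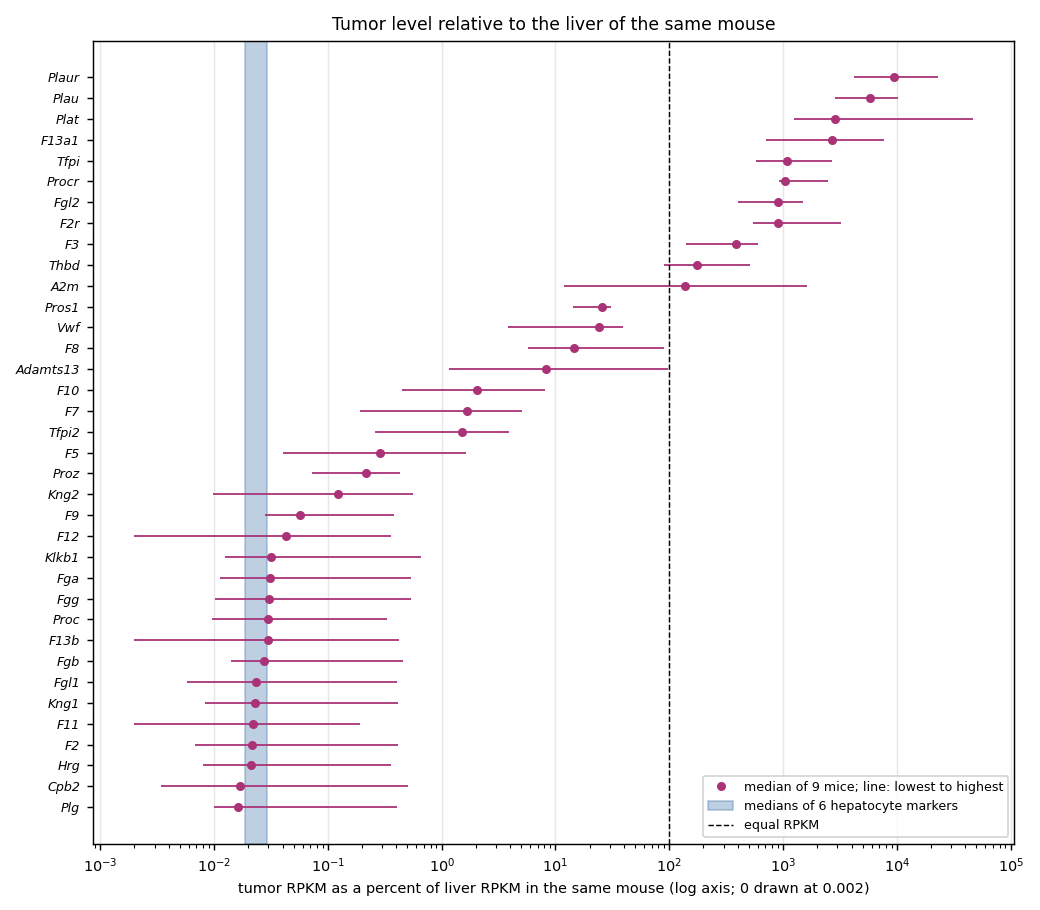
Tumor RPKM of each member as a percent of the RPKM in the liver of the same mouse (log axis), with points at the median of 9 mice and lines from the lowest to the highest mouse. The shaded band spans the medians of 6 hepatocyte markers (0.0189 to 0.0292%), 8 members lie in or under it, 7 lie between 10 times its upper end and the dashed line of equal RPKM, and 11 lie over that line.

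Another 7 genes were lower in the tumor but kept over 10 times the hepatocyte share. *Pros1* kept a median of 25.5% (4.07 to 8.99 RPKM in tumors, log2 fold change -3.26), *Vwf* 24.1% (-3.52), *F8* 14.6% (-4.08), and *Adamts13* 8.28% (-4.37). *F8* shares 1127 bases on the other strand with *Fundc2*, which was at a median of 24.1 RPKM in tumors and 1.84 RPKM in pre-metastatic livers, and reads of these genes cannot be told apart without strand. *F10* kept 2.03% (-6.59), *F7* 1.68% (-6.94), and *Tfpi2* 1.53% (-7.12). *F10* was at 5.66, 14.3, 0.949, 4.94, 4.17, 2.64, 2.93, 4.33, and 4.24 RPKM in the tumors of M1, M2, M4, M5, M6, M7, M8, M10, and M12. M2 was highest and M4 lowest, and the same tumors were the extremes for *F7* (2.53 and 0.0912 RPKM) and *F5* (2.05 and 0.0361 RPKM, log2 fold change -9.04, and -9.79 without M2). *Alb* was at 15.0 RPKM in M2, below M10 and M12 (86.4 and 172.8 RPKM) and above the remaining tumors (2.97 to 6.25 RPKM). The summed macrophage markers of M2, 906 RPKM, were the highest of the tumors, while M4, lowest for these genes, held 641 RPKM. Next to M2 came M1 in *F10*, M10 in *F7* (1.095 RPKM), and M12 in *F5* (0.546 RPKM). Their macrophage markers summed to 369 RPKM (the lowest), 519 RPKM, and 750 RPKM. The part of hepatocytes or macrophages in these levels was not tested. The kininogen genes parted as well, since *Kng2* exceeded *Kng1* in the tumors of M4 (0.758 against 0.0838 RPKM) and M7 (0.539 against 0.282 RPKM), while *Kng1* was higher in all 9 livers.

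In tumors, members were also set against cell type markers. *Vwf* had an *r* of 0.679 with endothelial markers (exact permutation, adjusted *p* = 0.0547, rho 0.583, adjusted *p* = 0.13), and without M1 and M5 it was 0.178. For *Plaur* and neutrophil markers *r* was 0.698 (exact permutation, adjusted *p* = 0.0417, rho 0.750, adjusted *p* = 0.0382), 0.889 without M1 and M10 (rho 0.857, adjusted *p* = 0.0683), and 0.726 within clock phase. On log2 CPM it did not pass, with *r* of 0.649 (exact permutation, adjusted *p* = 0.0647) and rho of 0.650 (adjusted *p* = 0.0998). *F13a1* and macrophage markers had an *r* of -0.06 (exact permutation, adjusted *p* = 0.883, rho -0.23, adjusted *p* = 0.552). *F13a1* was highest in M6, whose macrophage markers, 614 RPKM, were at the median of the tumors.

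Of the 20 companion genes, 7 were higher in the tumor and 12 lower, against 43.8 and 39.5% of all genes, together 83.3%. The 6 with the smallest adjusted *p* were *Vkorc1*, *Ggcx*, *Mcfd2*, *Serping1*, *Lman1*, and *Anxa2*. *Vkorc1*, vitamin K epoxide reductase, was at 22.6 to 36.3 RPKM in tumors and a median of 191 RPKM in pre-metastatic livers (-3.82, adjusted *p* = 3.35e-17), and the carboxylase *Ggcx* had -2.95 (adjusted *p* = 6.69e-16). *Mcfd2* and *Lman1*, the receptor for factors V and VIII, had -2.48 and -1.71, and *Serping1*, at 23.0 to 80.2 RPKM in tumors, had -5.62. *Anxa2* was 5.13 higher, at 701 to 1187 RPKM in tumors (adjusted *p* = 4.31e-13).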

How the data were processed

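Poly(A) RNA of 23 tissues was made into libraries with the NEBNext Ultra kit, 1 library per tissue. The authors deposited, for 48897 rows of gene symbols, the raw counts of each library, without normalization, and its RPKM, the count divided by gene length and library total; recomputed RPKM deviated by at most 1.75e-06 of the value. HISAT2, HISAT, HTSeq 0.6.0, and mm10 are named in the submitters' processing notes, without a role; strand handling and multi-mapped reads are not given in the sources used here. A total of 2 symbols on more than 1 row were summed, and 0 rows named no gene. All 46 count and RPKM columns matched the mouse and tissue in the labels.

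Groups were compared with edgeR 4.0.16 in R 4.3.3 on the deposited counts (TMM, quasi-likelihood test, two-sided, Benjamini-Hochberg adjustment), on genes reaching 10 counts in 5 or more of the libraries compared: 16987 for the livers and 19749 for tumor against pre-metastatic liver. The SE is the log2 fold change divided by the square root of the F statistic. The code was tested on simulated data. Correlations across 9 mice used log2(RPKM + 1) and exact permutation over all pairings. Alternatives were other scalings, no count filter, DESeq2 1.42.0, an exact Wilcoxon test on RPKM, log2(RPKM + 0.1), clock phase, a replicate block, and each library left out. Library totals without TMM, and tumors without M10 and M12, were added after the data had been seen. Python 3.11.15, numpy 2.4.6, scipy 1.17.1, pandas 2.3.3, and matplotlib 3.10.9 were used.

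Values are named for every member, and for companion genes for at most 6 per comparison, those with the smallest adjusted *p*. The members and lists were chosen with earlier results of these data known. Tumor and liver of a mouse come from the same animal, and after subtracting group means their values correlated by -0.0302 to 0.148 per mouse. Libraries within a group differed by a chi-square of at least 49.3 per degree of freedom, so none is a copy. Counts of a gene limit the precision of its level, and the interval given for *A2m* covers counting error only. Promoters are those of RefSeq for GRCm38.p6, and the positions of genes are those of the authors' table.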

Additional observations from a re-analysis of the deposited data

Results flagged for a closer look

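In 108 groups of values (36 genes in 3 tissues), 16 had 1 library farther from its nearest neighbor than Dixon's 95% limit allows, where chance gives about 1 in 20. The tumor of M12 accounted for 7 of them, each time as the highest tumor: *Kng1* at 6.86 RPKM (next 2.92), *F11* at 0.0775 RPKM (next 0.0347), *F2* at 4.50 RPKM (next 2.30), *Fga* at 26.6 RPKM (next 11.1), *Fgb* at 45.9 RPKM (next 19.9), *Fgg* at 30.9 RPKM (next 14.1), and *Fgl1* at 10.2 RPKM (next 5.22). The next highest tumor was that of M10, and these tumors also held the most *Alb*, at 172.8 and 86.4 RPKM.

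The tumor of M2 was highest for *F7* at 2.53 RPKM (next 1.09), *F10* at 14.3 RPKM (next 5.66), and *F5* at 2.05 RPKM (next 0.546). In the tumor of M6, *F2r* was at 67.2 RPKM (next 44.2) and *F13a1* at 83.4 RPKM (next 19.4). *Plat* was at 17.9 RPKM in the tumor of M8 (next 12.4). Control liver C1 stood above the other control livers for *Hrg* at 832 RPKM (next 535) and *F7* at 52.0 RPKM (next 41.5). Pre-metastatic liver M1 was highest for *F13a1* at 1.93 RPKM (next 1.07).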

How the results depend on the processing

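The members that passed in liver numbered 16 to 22 over the alternatives, 0 of them lower except for *F12* by the exact Wilcoxon test, and 16 to 23 with each liver left out in turn. In tumor they numbered 33 to 35. With the mouse as a replicate block 34 passed in tumor, *F3* being the call it changed, and the fold changes of the hepatocyte genes grew (*Fga* -12.32, *Fgb* -12.40, *Fgg* -12.35). In liver the numbers pair no animals (correlations -0.112 to 0.0738, with 1 of 5 control livers closest to its own number), and with the number as a replicate block 16 members and 5 companion genes passed in place of 20 and 9. Companion genes in liver also numbered 5 among early-phase livers and 5 to 9 with each liver left out.

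Directions changed only for *Hrg*, *F9*, and *Thbd*. *Hrg* in liver was -0.0663 on library totals, -0.0128 with the block, -0.16 in the early phase, and -0.0647 to 0.24 with each liver left out. In the Wilcoxon alternative, where the change is the difference of log2(mean RPKM + 1) between groups, it was -0.066. *F9* was -0.0024 with relative log expression scaling and by DESeq2, -0.0796 on library totals, -0.0057 without the count filter, -0.0228 in the early phase, -0.0786 in the Wilcoxon alternative, and -0.0757 to 0.10 with each liver left out. *Thbd* in liver was -0.0294 to 0.29 with each left out, and in tumor 0.80 on library totals and 0.48 in the Wilcoxon alternative. For each, the cause was not tested.

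The correlations of *Fga* (0.720) and *Fgg* (0.784) with the acute-phase score did not pass without M2 and M10. That of *Vwf* passed with log2(RPKM + 0.1) (0.705) and with log2 CPM (0.747), and that of *Plaur* did not with log2 CPM (0.649). Depth limits *A2m*, with 10 counts in all control livers, and *F11* in tumors, with at most 12 counts.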
